A study of Arabidopsis thaliana with 9 samples.

Results

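The *PHYTOCHROME KINASE SUBSTRATE* genes *PKS1* (AT2G02950), *PKS2* (AT1G14280), *PKS3* (AT1G18810) and *PKS4* (AT5G04190) and the phototropin genes *PHOT1* (AT3G45780) and *PHOT2* (AT5G58140) were followed in leaf RNA of *Arabidopsis thaliana*. These 6 genes were chosen by name and locus among the 37363 genes of the deposited tables. All 6 had at least 1 TPM (a transcript level scaled for gene length and for the library total) in at least 3 of the 9 libraries, as did 17784 genes in all, and these were tested.

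Rosette leaves of wild type Columbia plants were taken at 4 weeks of age, with 3 plants pooled in each library and 3 libraries per treatment. Weed-free plants grew at a red to far-red ratio (R:FR) of 1.4 throughout. The ratios here are those of the sample labels, and the study's text gives a somewhat higher value for weed-free. Plants under biological low R:FR had 3 weeks at 1.4 and then 1 week at 0.3 beside grass, whose leaves reflect far-red light, and plants under artificial low R:FR had the same 3 weeks and then 1 week at 0.3 from far-red LEDs. The study describes separate chambers for the biological and the artificial source, so growth chamber and light source cannot be told apart. It mentions an opaque screen that parted control plants from those beside grass. The chamber of the sequenced weed-free plants is not named. Differences of artificial low R:FR from weed-free may therefore also hold a difference of chamber, which was not tested. The time of day of harvest is not given for any treatment, and a part of it in the differences between treatments was not tested. The study describes its replicates as independent experiments, and the labels do not say which library came from which experiment.

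Phototropins are blue light receptors with a kinase domain that steer phototropism, chloroplast movement, leaf positioning and stomatal opening. PKS proteins were first found as substrates of phytochrome kinase activity, sit at the plasma membrane with phototropins and NPH3, and take part in phototropism, leaf flattening and leaf positioning. Phytochromes read the R:FR ratio, and the PKS family is therefore a place where red and blue light signalling meet.

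Each *PKS* gene has a single exon and a single annotated transcript in the TAIR10.1 assembly, whereas *PHOT1* has 2 transcripts with up to 21 exons and *PHOT2* has 7 with up to 24. *PKS1* lies at chr2:854077-856725 on the minus strand, *PKS2* at chr1:4877506-4879307 on the plus strand, *PKS3* at chr1:6485515-6487153 on the minus strand and *PKS4* at chr5:1150886-1152627 on the plus strand. *PHOT1* lies at chr3:16816721-16824210 and *PHOT2* at chr5:23523825-23533111, both on the plus strand. The annotation gives AT1G18810 only by its locus, and the name *PKS3* is the one used for it in the choice of genes. Exons of *PKS1* share 189 bases with AT2G04465 and those of *PHOT2* share 2760 bases with AT5G58150, both on the opposite strand. The strand setting of the counting is not given in the sources used here. AT5G58150 was listed at 0 TPM in all 9 libraries and AT2G04465 reached at most 0.0558 TPM, against at least 28.8 TPM for *PHOT2* and 6.68 TPM for *PKS1*.

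The 300 bases before the annotated start were read from the TAIR10.1 genome for 5 of the 6 genes (all but *PKS4*), and shown are those of *PKS1*, which differed most between the treatments, and of *PHOT1*, the only one of the 5 that held a searched motif. The windows lie at chr2:856726-857025 (minus strand) and chr3:16816421-16816720 (plus strand). Capitals mark the E-box CATGTG, a binding site of PHYTOCHROME INTERACTING FACTORS, in *PHOT1*.
PKS1: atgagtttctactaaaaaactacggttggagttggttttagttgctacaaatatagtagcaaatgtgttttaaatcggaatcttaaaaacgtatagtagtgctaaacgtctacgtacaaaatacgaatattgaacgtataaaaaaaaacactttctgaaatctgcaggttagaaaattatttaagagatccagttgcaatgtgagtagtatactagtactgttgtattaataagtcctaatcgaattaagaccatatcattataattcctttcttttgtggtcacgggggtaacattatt
PHOT1: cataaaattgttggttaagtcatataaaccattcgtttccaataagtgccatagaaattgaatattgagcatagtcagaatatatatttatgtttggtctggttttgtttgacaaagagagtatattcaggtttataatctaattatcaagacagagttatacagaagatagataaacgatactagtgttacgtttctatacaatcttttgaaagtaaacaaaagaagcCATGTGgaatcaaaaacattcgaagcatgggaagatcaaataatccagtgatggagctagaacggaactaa
Searched on both strands were 6 motifs, namely this E-box, the CCA1-binding site AAAAATCT, the G-box CACGTG, the evening element AAAATATCT, the HD-Zip site CAATNATTG and the auxin response element TGTCTC. *PHOT1* held the E-box at positions -71 to -66 from its start, and the other 4 windows held no match. The windows of *PKS2* and *PHOT2* overlap the neighbouring genes AT1G14270 and AT5G58130. Among the windows of all 27443 genes searched, 7.94% held AAAAATCT, 13.1% CATGTG, 7.09% CACGTG, 2.79% AAAATATCT, 1.14% CAATNATTG and 13% TGTCTC. A match describes the letters and is not a measured binding site.

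By TPM, the sequenced leaves carried a low R:FR signature. *ATHB2*, a homeodomain gene induced rapidly by low R:FR, was at 28.1, 30.1 and 25.6 TPM in weed-free replicates 1 to 3, at 77.5, 70.2 and 78.2 TPM under biological low R:FR and at 103, 99.7 and 75.4 TPM under artificial low R:FR. Of 7 shade marker genes tested, 6 rose under biological and 4 under artificial low R:FR, where limma called 9.57% and 3.77% of all genes tested. None fell, with 0 and 1 lower before adjustment (p under 0.05). On the count table, edgeR called 2 and 0 of 3 shade markers tested. Of 15 clock genes, replicate 3 was the highest library in every treatment for 7 and the lowest in every treatment for 5, which held for 24.7% of all genes tested and 3 of the 6 genes described here (*PKS1* and *PHOT1* highest, *PKS4* lowest). None of the 15 clock genes passed against weed-free by limma, with 1 higher and 0 lower before adjustment (p under 0.05) beside grass. Under far-red LEDs 5 were higher and 7 lower before adjustment. With the replicate number as a block, 5 rose and 7 fell under LEDs, in a fit that also called more of all genes tested. Beside grass 1 rose and 0 fell with that block. Against weed-free, edgeR on the count table called 0 (grass) and 2 (LEDs) of 5 tested. Between the treatments, limma called 7 higher and 3 lower under biological low R:FR, beside 37.4% of all genes (23.8% higher and 13.6% lower). There edgeR called 2 higher and 2 lower of 5 tested. *ELF4*, an evening-expressed clock gene, was at 108, 104 and 449 TPM in weed-free, 141, 143 and 439 TPM under biological and 3.93, 3.29 and 80.2 TPM under artificial low R:FR. The summed level of 4 mesophyll markers was 36664 to 45127 TPM in weed-free, 25246 to 30080 TPM under biological and 50608 to 62628 TPM under artificial low R:FR, and that of 3 epidermis markers was 35.4 to 41.3, 45.1 to 63.8 and 30.3 to 38.0 TPM. The 4 guard cell markers summed to 24.1 to 37.0 TPM, the 4 vascular markers to 39.8 to 54.7 TPM and the 4 markers of dividing cells to 6.69 to 14.0 TPM over all libraries, and no marker of flowers (3) or roots (2) reached 1 TPM. In such bulk samples, fewer cells of a type and less RNA per cell cannot be told apart, and the part of these shifts in the results was not tested.

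In weed-free leaves, *PHOT1* was the most abundant of the 6 genes by TPM at 51.6 ± 2.80 (mean ± SD, n = 3 here and below). It was followed by *PHOT2* at 36.4 ± 7.44, *PKS2* at 29.3 ± 4.48, *PKS3* at 15.0 ± 1.85, *PKS1* at 10.5 ± 1.15 and *PKS4* at 1.88 ± 0.421 TPM. The libraries of *PHOT2* and *PKS2* overlapped, while every other pair of neighbours in this order was separate. Under biological low R:FR the order was *PHOT1* (66.5 ± 6.04 TPM), *PKS2* (49.1 ± 2.53), *PHOT2* (39.2 ± 4.97), *PKS1* (15.2 ± 2.74), *PKS3* (12.3 ± 1.46) and *PKS4* (3.35 ± 1.41), with overlap between *PKS1* and *PKS3* only. *PKS2* thus stood above *PHOT2*, and *PKS1* above *PKS3*, where the reverse held for the means in weed-free. Under artificial low R:FR the order was *PHOT1* (55.8 ± 6.35 TPM), *PKS2* (48.7 ± 3.55), *PHOT2* (41.6 ± 4.78), *PKS3* (17.5 ± 0.151), *PKS1* (7.98 ± 1.24) and *PKS4* (5.001 ± 2.42). Here *PHOT1* overlapped with *PKS2*, and *PKS1* with *PKS4*. This order holds for TPM only. In the deposited count table, whose values are not scaled for length, the weed-free means were 188 normalized counts for *PKS1*, 116 for *PHOT2*, 44.7 for *PKS4*, 30.5 for *PHOT1*, 28.7 for *PKS2* and 8.60 for *PKS3*.

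Against the 17784 genes tested, *PHOT1* ranked above 89.0 to 92.1% of genes over the 9 libraries, *PHOT2* above 83.2 to 88.1% and *PKS2* above 77.8 to 89.4%. *PKS3* ranked above 59.2 to 74.1% and *PKS1* above 51.2 to 72.4%. *PKS4* ranged most widely, from above 7.25% to above 51.1% of genes.

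**Figure D1:**
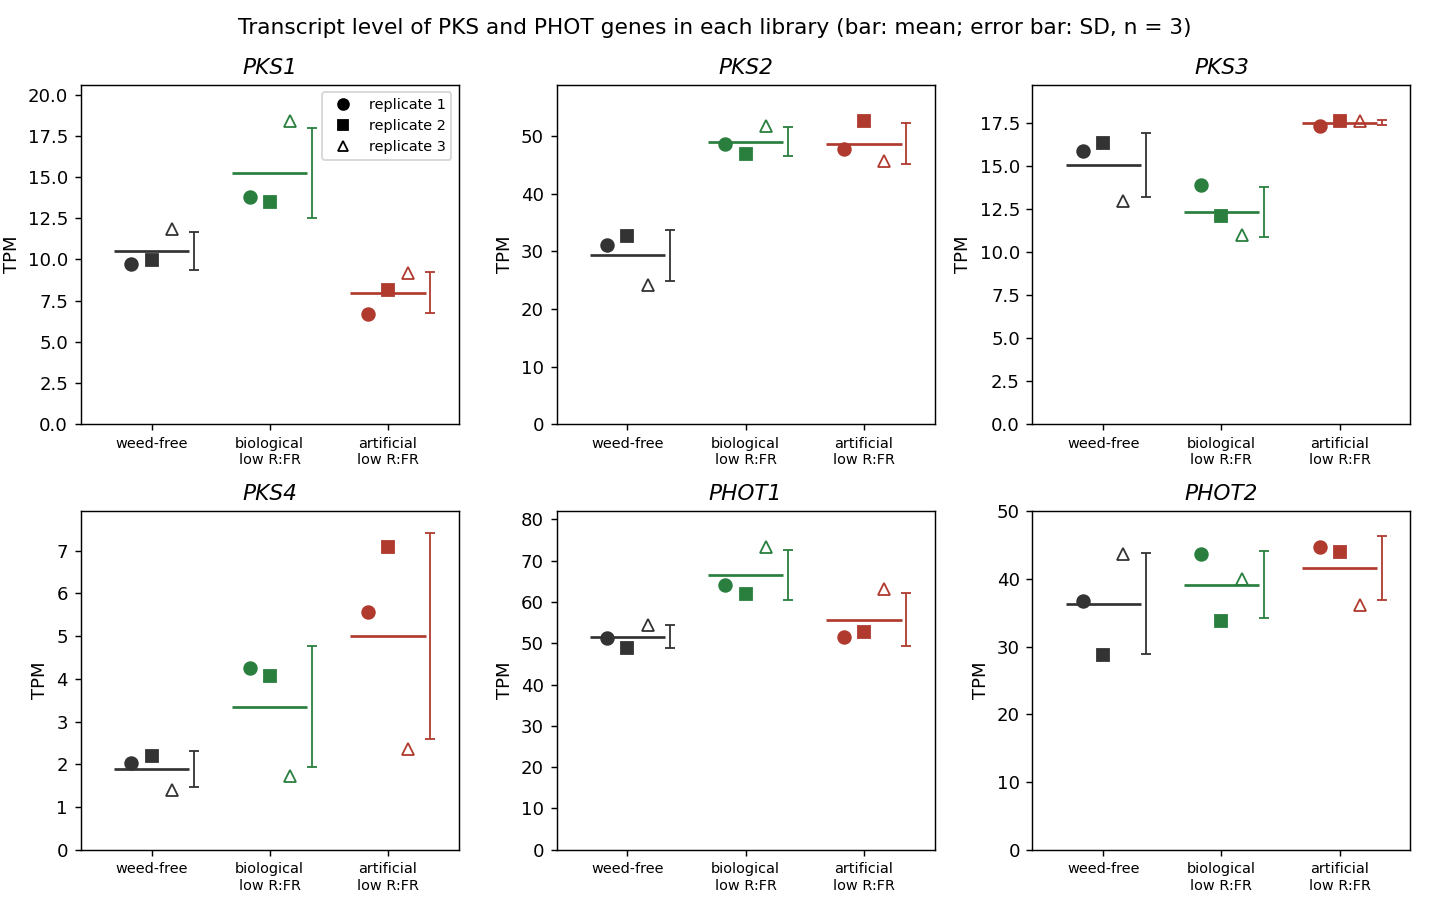
TPM of each gene (vertical axes, linear, from 0) in every library, by treatment; circles, squares and open triangles are replicates 1, 2 and 3, horizontal bars are means and the error bars beside them SD (n = 3). *PKS2* lies at 24.2 to 32.7 TPM in weed-free and at 45.7 to 52.6 TPM in both low R:FR treatments, while *PKS1* is highest under biological and lowest under artificial low R:FR.

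*PKS2*, which takes part in leaf flattening and positioning, rose under both low R:FR treatments by a similar amount. It was at 31.1, 32.7 and 24.2 TPM in weed-free replicates 1 to 3, at 48.6, 46.9 and 51.9 TPM under biological low R:FR and at 47.7, 52.6 and 45.7 TPM under artificial low R:FR. All 6 low R:FR libraries lay above all 3 weed-free libraries, and the low R:FR treatments overlapped each other. In limma on log2(TPM + 1), fitted to all genes tested with Benjamini-Hochberg adjustment and a threshold of 0.05, the log2 fold change over weed-free was 0.73 (SE 0.132, adjusted p = 0.0109) under biological low R:FR. Under artificial low R:FR it was 0.72 (SE 0.132, limma adjusted p = 0.016). The difference between the treatments was 0.01 on the log2 scale with a 95% interval of -0.28 to 0.30 and a limma adjusted p of 0.946, and the comparisons share the weed-free libraries. The rise under biological low R:FR passed the threshold whichever library was left out. That under artificial low R:FR did not pass without artificial low R:FR replicate 1 (log2 fold change 0.73, adjusted p = 0.0663) or replicate 2 (0.67, adjusted p = 0.101).

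The deposited count table gave another picture of *PKS2*, and it did not count the same reads as the TPM tables. Its normalized counts were 27.5, 28.4 and 30.0 in weed-free, 33.2, 33.3 and 44.6 under biological and 19.1, 18.4 and 33.6 under artificial low R:FR, which came from 16 to 63 reads per library. The log2 fold change on these counts was 0.35 (limma adjusted p = 0.511) for biological low R:FR and -0.31 (adjusted p = 0.622) for artificial low R:FR, so the rise was not called there and the direction under artificial low R:FR was the opposite. The coverage in the TPM tables was 98.7 to 467 reads per base of *PKS2*, above the number of reads in the count table in 9 of 9 libraries. The same held in 9 of 9 libraries for *PKS3* (43.0 to 170 reads per base, against 2 to 10 reads) and *PHOT1* (140 to 528 reads per base, against 13 to 63 reads), in 2 of 9 for *PHOT2*, and in 0 of 9 for *PKS1* (114 to 374 reads) and *PKS4* (30 to 316 reads). Coverage is a depth per base, whereas the count is a total for the gene. A value of 0 of 9 therefore does not mean that both tables counted the same reads. The count table also holds only a small part of the mapped reads that the study lists. The cause of the difference between the tables was not tested.

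*PKS1*, the founding member, which binds phytochromes and phototropins, was highest beside grass and lowest under far-red LEDs. It was at 9.69, 9.98 and 11.8 TPM in weed-free replicates 1 to 3, at 13.8, 13.5 and 18.4 TPM under biological low R:FR and at 6.68, 8.11 and 9.15 TPM under artificial low R:FR. The libraries of the 3 treatments did not overlap, with biological low R:FR the highest and artificial low R:FR the lowest, and replicate 3 was the highest in each treatment. The treatments differed by 0.85 on the log2 scale (SE 0.156, limma adjusted p = 0.00231), which passed the threshold whichever library was left out, with values from 0.72 to 0.94. Against weed-free, neither arm passed: the log2 fold change was 0.49 (SE 0.156, adjusted p = 0.0682) under biological and -0.36 (SE 0.156, adjusted p = 0.219) under artificial low R:FR. The former passed without weed-free replicate 3 (0.57, adjusted p = 0.0453) and with the replicate number as a block (0.49, adjusted p = 0.0267). That block rests on a shared number, as same-numbered pairs there correlated at 0.00 to 0.27.

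For *PKS1*, the count table had the same order. Normalized counts were 176, 222 and 166 in weed-free, 310, 235 and 309 under biological low R:FR and 120, 124 and 145 under artificial low R:FR. The treatments again did not overlap, and *PKS1* was the only one of the 6 genes called between biological and artificial low R:FR in that table.

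*PKS3*, the least studied member of the family, showed the reverse order to *PKS1*. It was at 15.9, 16.3 and 12.9 TPM in weed-free, at 13.9, 12.1 and 10.99 TPM under biological low R:FR and at 17.3, 17.6 and 17.6 TPM under artificial low R:FR. The artificial low R:FR libraries lay above all others, and the weed-free and biological low R:FR libraries overlapped. *PKS3* was lower under biological than under artificial low R:FR by a log2 difference of -0.48 (SE 0.1301, limma adjusted p = 0.0148). This call was lost without artificial low R:FR replicate 1 (-0.49, adjusted p = 0.0517) or replicate 2 (-0.48, adjusted p = 0.0508). The log2 fold changes over weed-free, -0.27 (adjusted p = 0.194) under biological and 0.21 (adjusted p = 0.398) under artificial low R:FR, did not pass. In the count table *PKS3* had at most 10 reads per library and did not reach the minimum for a test, 10 normalized counts in at least 3 libraries.

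*PKS4*, which acts in phot1-dependent phototropism of the hypocotyl, was the least abundant member by TPM. In the count table, however, its weed-free mean (44.7 normalized counts) was above that of *PKS2* (28.7), a gene of similar length. It was at 2.04, 2.20 and 1.40 TPM in weed-free, at 4.25, 4.07 and 1.73 TPM under biological low R:FR and at 5.57, 7.08 and 2.35 TPM under artificial low R:FR. Replicate 3 was the lowest library in each treatment, and only the artificial low R:FR libraries were all above weed-free. On the log2(TPM + 1) scale, which understates changes of low genes, the fold change over weed-free was 0.55 (SE 0.347, limma adjusted p = 0.321) under biological and 0.98 (SE 0.347, adjusted p = 0.149) under artificial low R:FR. The ratio of mean TPM to weed-free was 1.78 and 2.66. Neither difference passed, nor did that between the treatments (-0.43, adjusted p = 0.348). With the replicate number as a block, the difference under artificial low R:FR passed (0.98, SE 0.174, adjusted p = 0.0113), and same-numbered libraries of weed-free and artificial low R:FR did deviate together in all 3 pairs. Those pairs correlated at 0.17 to 0.31, and unlike-numbered ones at up to 0.14.

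*PKS4* was sensitive to replicate 3. Without artificial low R:FR replicate 3 alone, its log2 fold change over weed-free was 1.35 (limma adjusted p = 0.00688) under artificial low R:FR, and biological minus artificial low R:FR was -0.80 (adjusted p = 0.037). In a fit without replicate 3 of any treatment, chosen after seeing the data, it was 0.73 (adjusted p = 0.0135) under biological and 1.23 (adjusted p = 0.00121) under artificial low R:FR. *CCA1*, a morning-expressed clock gene, was at 4.12, 4.53 and 1.29 TPM in weed-free, 5.15, 3.61 and 1.48 TPM under biological and 37.0, 40.9 and 8.23 TPM under artificial low R:FR. Like *PKS4*, it was lowest in replicate 3 of each treatment, whereas *ELF4* was highest there. Whether the clock has a part in the level of *PKS4* was not tested. The normalized counts of *PKS4*, 50.9, 53.3 and 30.0 in weed-free, 97.2, 83.4 and 31.4 under biological and 163, 196 and 58.7 under artificial low R:FR, had the same low replicate 3.

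**Figure D2:**
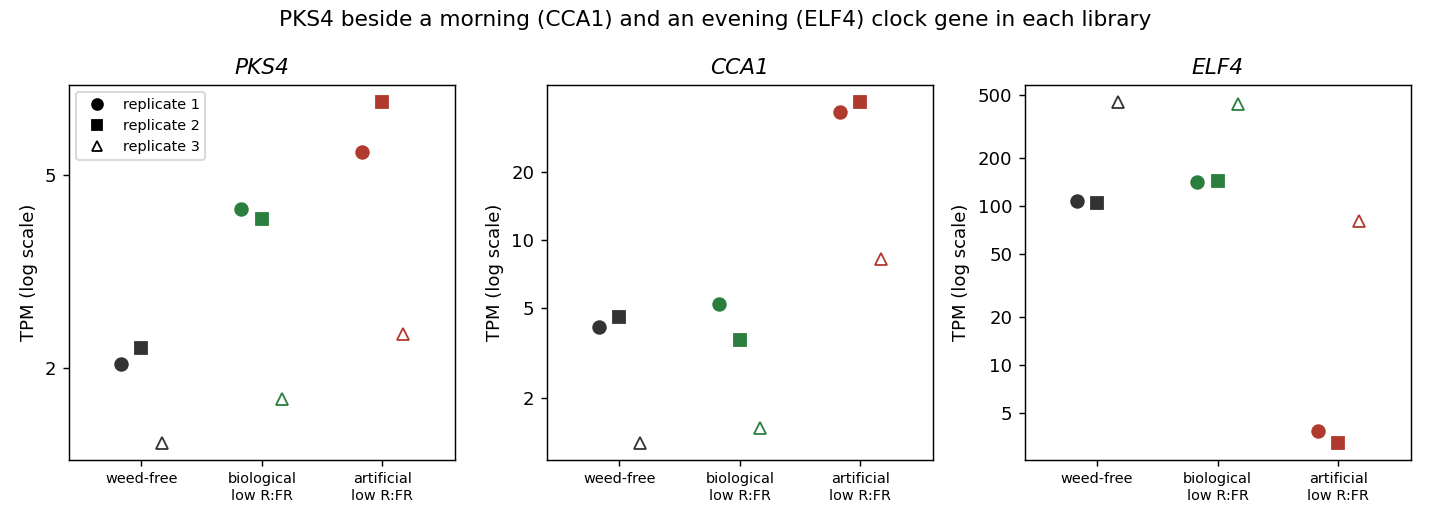
TPM on a log axis of *PKS4*, *CCA1* and *ELF4* in every library; circles, squares and open triangles are replicates 1, 2 and 3. In each treatment replicate 3 is the lowest library of *PKS4* and *CCA1* and the highest of *ELF4*, for example 2.35 against 5.57 and 7.08 TPM of *PKS4* under artificial low R:FR.

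The *PKS* genes together held 56.7 ± 5.65 TPM in weed-free, 80.0 ± 3.26 TPM under biological and 79.2 ± 5.54 TPM under artificial low R:FR. The weed-free libraries (50.4 to 61.2 TPM) lay below all low R:FR libraries (74.8 to 85.4 TPM), whereas the 2 low R:FR treatments overlapped. *PKS2* made up 53.0, 53.4 and 48.1% of this sum in weed-free, 60.4, 61.3 and 62.5% under biological low R:FR and 61.8, 61.6 and 61.1% under artificial low R:FR. Its share was above that in weed-free in all 6 low R:FR libraries. This make-up holds for TPM only. In the count table, which is not scaled for length, *PKS1* had the highest weed-free mean of the *PKS* genes, at 188 normalized counts. *PKS4* was at 44.7, *PKS2* at 28.7 and *PKS3* at 8.60 there. The mean of *PKS2* was 37.0 under biological and 23.7 under artificial low R:FR.

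The rest of the pool was divided differently by the treatments. *PKS1* held 19.0 ± 2.77% under biological low R:FR, as against 18.8 ± 4.06% in weed-free, and 10.1 ± 1.88% under artificial low R:FR. *PKS3* held 26.5 ± 0.722% in weed-free, 15.4 ± 2.01% under biological and 22.2 ± 1.47% under artificial low R:FR, with no overlap between the treatments. *PKS4* held 3.28 ± 0.436%, 4.23 ± 1.86% and 6.21 ± 2.72%, with overlap. The ratio of *PKS2* to *PKS1* was 3.20, 3.27 and 2.05 in weed-free, 3.52, 3.47 and 2.82 under biological low R:FR and 7.15, 6.49 and 4.997 under artificial low R:FR, where it lay above all other libraries.

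**Figure D3:**
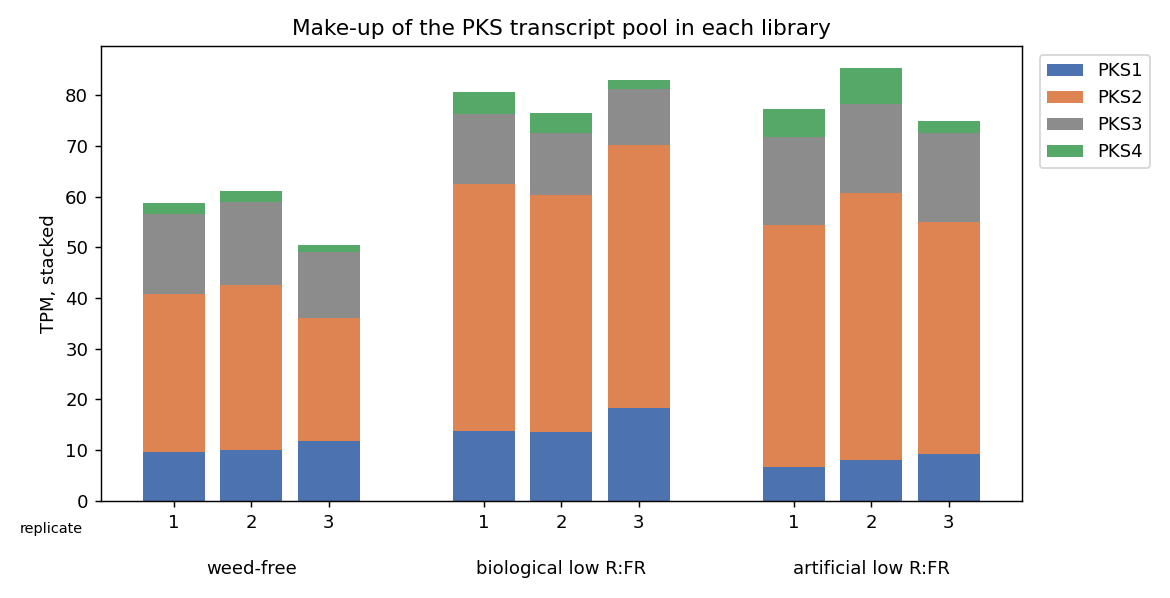
TPM of *PKS1*, *PKS2*, *PKS3* and *PKS4* stacked in each library (vertical axis, linear, from 0), in the order of replicates within each treatment. The bars total 50.4 to 61.2 TPM in weed-free and 74.8 to 85.4 TPM under low R:FR, and the *PKS2* segment makes up 48.1 to 62.5% of them.

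*PHOT1*, the receptor that acts over the widest range of blue light intensities, was highest under biological low R:FR. It was at 51.3, 48.9 and 54.5 TPM in weed-free, at 64.2, 61.9 and 73.3 TPM under biological low R:FR and at 51.5, 52.7 and 63.1 TPM under artificial low R:FR. The biological low R:FR libraries lay above all weed-free libraries, and artificial low R:FR overlapped with both. The log2 fold change over weed-free was 0.36 (SE 0.123, limma adjusted p = 0.0835) under biological and 0.11 (adjusted p = 0.681) under artificial low R:FR, and the biological treatment exceeded the artificial one by 0.25 (adjusted p = 0.124). No comparison passed. The first passed after quantile normalization of the libraries (0.38, adjusted p = 0.0339) and with the replicate number as a block (0.36, adjusted p = 0.045). That block rests on a shared number, as same-numbered pairs there correlated at 0.00 to 0.27. In the count table the treatments overlapped for *PHOT1*. Normalized counts were 34.4, 23.1 and 34.1 in weed-free, 38.9, 41.7 and 29.7 under biological and 32.6, 29.3 and 26.7 under artificial low R:FR.

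*PHOT2*, which serves strong blue light and the avoidance movement of chloroplasts, did not separate between the treatments. It was at 36.7, 28.8 and 43.6 TPM in weed-free, at 43.7, 33.9 and 39.9 TPM under biological low R:FR and at 44.7, 44.0 and 36.1 TPM under artificial low R:FR. All 3 treatments overlapped. The log2 fold change over weed-free was 0.12 (95% interval -0.24 to 0.47, limma adjusted p = 0.665) under biological and 0.20 (-0.16 to 0.56, adjusted p = 0.538) under artificial low R:FR, and biological minus artificial low R:FR gave -0.09 (-0.45 to 0.27, adjusted p = 0.7). The ratio of *PHOT1* to *PHOT2* was 1.45 ± 0.230 in weed-free, 1.71 ± 0.211 under biological and 1.37 ± 0.331 under artificial low R:FR, with overlap between all treatments.

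**Figure D4:**
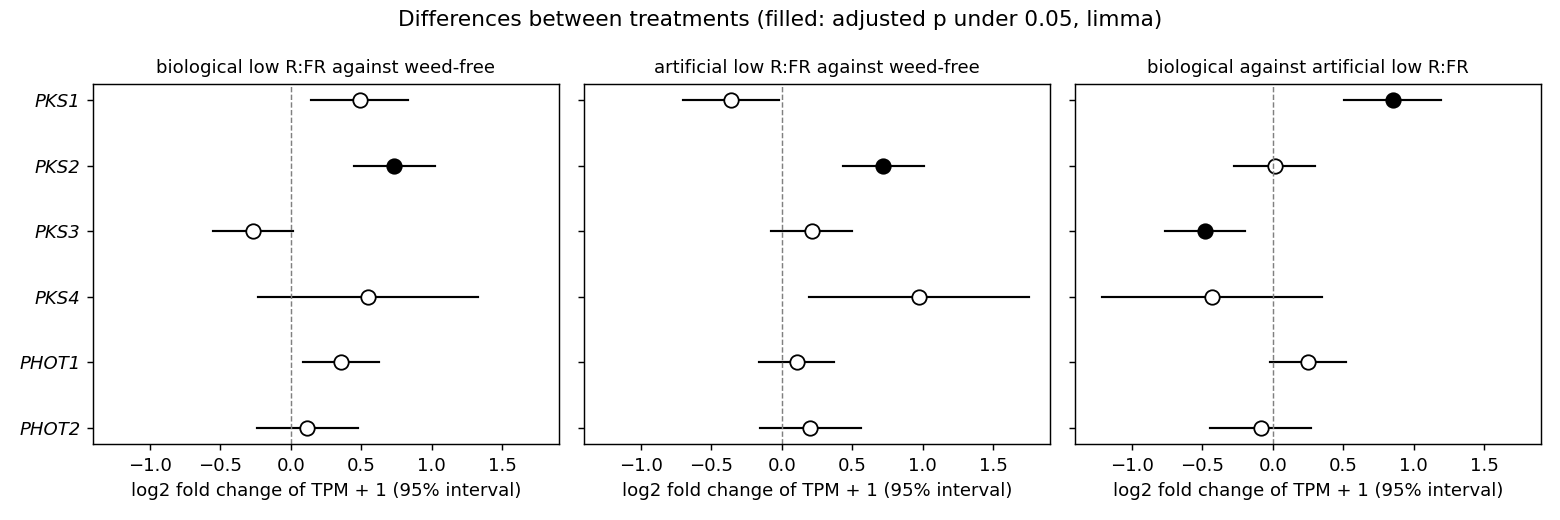
Log2 fold change of TPM + 1 with its 95% interval (horizontal axis) for each gene in the comparison of biological low R:FR with weed-free, of artificial low R:FR with weed-free and of biological with artificial low R:FR; filled points have a limma adjusted p under 0.05. *PKS2* is filled in both comparisons with weed-free (0.73 and 0.72), and *PKS1* (0.85) and *PKS3* (-0.48) in the direct comparison.

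In all, 1 of the 6 genes rose and none fell beside grass, where limma called 9.57% of all genes tested, 6.20% higher and 3.37% lower. Before adjustment (p under 0.05), 3 were higher and 0 lower. Under artificial low R:FR 1 rose and 0 fell, against 3.77% of all genes called (2.53% higher and 1.24% lower), and before adjustment 2 were higher and 1 lower. With the replicate number as a block 2 rose under artificial low R:FR (*PKS2* and *PKS4*), and 1468 rather than 671 of all genes were called. Between the treatments 1 was higher and 1 lower under biological low R:FR, against 37.4% of all genes called (23.8% higher and 13.6% lower), a share near that of the 6 genes. On the log2 scale, the median change of the 6 genes was 0.42, 0.21 and -0.04 in the 3 comparisons, beside 0.11, -0.04 and 0.16 for all genes tested. Scaling the libraries to a common median ratio moved the all-gene medians to 0.01, 0.00 and 0.01 and those of the 6 genes to 0.30, 0.26 and -0.21, and left the calls of the 6 genes as they were.

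Counted by libraries that did not overlap, 3 of the 6 genes were higher under biological low R:FR than in weed-free (*PKS1*, *PKS2* and *PHOT1*) and 0 were lower, where 29.7% of all genes tested did not overlap (19.0% higher and 10.7% lower). Under artificial low R:FR, 3 were higher (*PKS2*, *PKS3* and *PKS4*) and 1 was lower (*PKS1*), against 28.0% of all genes (13.6% higher and 14.4% lower). Between the treatments 1 was higher (*PKS1*) and 1 lower (*PKS3*) under biological low R:FR, against 53.1% of all genes (35.2% higher and 17.9% lower). The exact permutation test of mean TPM gave its smallest possible p of 0.1 (two-sided, 3 libraries against 3) for each of these and a larger p for the others.

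Genes that work with phototropins in phototropism and auxin transport were called at several loci beside grass. Of 13 such genes, all of them tested, 4 rose and 0 fell against weed-free, where 9.57% of all genes were called. On the recovered reads of the count table, edgeR called 1 higher and 1 lower of 9 tested. The 4 called on TPM were *ABCB19* (log2 fold change 0.85) and *PIN3* (0.92), which encode auxin efflux transporters, *IAA19* (1.04), an auxin-induced repressor of the auxin response, and *NPY1* (0.72), a relative of the phototropin partner *NPH3*. Under artificial low R:FR 0 rose and *NPY1* fell by 0.63, with 4 genes higher and 2 lower before adjustment (p under 0.05) and 0 of 9 tested called by edgeR on the recovered reads. With the replicate number as a block, *IAA19* (0.99), *RPT2* (0.93) and *NCH1* (0.61) rose there as well. *NPY1* was at 17.2, 16.7 and 18.9 TPM in weed-free, 31.0, 24.9 and 33.8 TPM under biological and 9.29, 10.4 and 13.5 TPM under artificial low R:FR. The treatments did not overlap for *NPY1*, as for *PKS1*.

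Between the treatments, 5 of the 13 genes were higher under biological low R:FR and 1 was lower, a share near the 37.4% of all genes called, and edgeR called 3 higher and 1 lower of 9 tested. The higher ones were *NPY1* (1.36), *ABCB19* (0.97), *PIN4* (0.85) and *PIN7* (0.68), both auxin efflux transporters, and *NPH3* (0.45), which links phototropins to phototropism. The lower one was *NCH1* (-0.44), an *NPH3* relative needed for chloroplast accumulation. The median log2 change of the 13 genes was 0.36, -0.07 and 0.26 in the 3 comparisons. With single libraries left out, 0 to 7 of these genes rose under biological low R:FR, and the calls of *NPY1* and *ABCB19* between the treatments held in 9 of 9 such fits.

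None of 8 genes of chloroplast movement passed against weed-free under biological low R:FR by limma on TPM (0 higher and 0 lower before adjustment, p under 0.05), and none passed under artificial low R:FR (3 higher and 0 lower). On the recovered reads, edgeR called 0 of 5 tested in both comparisons and also between the treatments. With the replicate number as a block, *THRUMIN1* (2.00) and *JAC1* (1.17) rose under artificial low R:FR. On TPM, 0 were higher and 4 were lower under biological than under artificial low R:FR, beside 37.4% of all genes called, namely *THRUMIN1* (-2.52), an actin-bundling protein, *JAC1* (-1.01), needed for the accumulation response, and *PMI2* (-0.70) and *PMI1* (-0.46), needed for movement. *THRUMIN1* was at 10.6, 8.44 and 4.26 TPM in weed-free, 7.25, 6.42 and 2.15 TPM under biological and 45.0, 47.5 and 15.4 TPM under artificial low R:FR. Replicate 3 was the lowest library in each treatment, as for *PKS4*. Only the call of *PMI2* held in 9 of 9 fits with a library left out.

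Blue light opens stomata through phototropins, and of 5 genes of this pathway *CBC1*, a kinase under phototropin control, moved in opposite directions. It was at 41.2, 43.5 and 35.7 TPM in weed-free, at 78.1, 67.3 and 61.0 TPM under biological and at 18.0, 23.0 and 31.3 TPM under artificial low R:FR. The treatments did not overlap. *CBC1* rose by 0.76 (limma adjusted p = 0.0274) under biological low R:FR, where it was the 1 gene of the list that passed, and fell by 0.74 (adjusted p = 0.0459) under artificial low R:FR, where it was again the 1 gene that passed. After scaling to a common median ratio, neither comparison with weed-free called any of the 5 (3 higher and 1 lower before adjustment, p under 0.05), and with the replicate number as a block the fall under artificial low R:FR was not called. Between the treatments 4 were higher under biological low R:FR and 0 lower, beside 37.4% of all genes called, and edgeR called 0 of the 1 gene it tested. On TPM the 4 were *CBC1* (1.503), the plasma membrane proton pumps *AHA1* (0.77) and *AHA2* (0.67), and *BLUS1* (0.40), the phototropin substrate that starts the response. Between the treatments the calls of *CBC1* and *AHA1* held in 9 of 9 fits with a library left out.

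Among 12 other photoreceptor genes, 2 rose under biological low R:FR, *PHYA* (0.76) and *PHYB* (0.71), and 1 under artificial low R:FR, *PHYB* (1.04). Of all genes tested, 9.57% and 3.77% were called in these comparisons. No photoreceptor gene fell in either, with 0 and 4 lower before adjustment (p under 0.05), and edgeR on the recovered reads called 0 of 4 tested in both. With the replicate number as a block, *CRY2* (-0.75), *PHYA* (-0.55) and *UVR8* (-0.49) fell under artificial low R:FR. *PHYB*, the main R:FR sensor, was at 11.3, 11.2 and 13.8 TPM in weed-free, 23.2, 16.8 and 21.5 TPM under biological and 24.6, 27.0 and 26.0 TPM under artificial low R:FR. Both low R:FR treatments lay above weed-free, as for *PKS2*. *PHYA*, the far-red receptor, was at 14.0, 12.9 and 14.3 TPM in weed-free, 27.4, 24.3 and 20.5 TPM under biological and 8.26, 8.44 and 10.7 TPM under artificial low R:FR, an order shared with *PKS1*. Between the treatments 6 were higher under biological low R:FR, *FKF1* (4.72), *PHYA* (1.31), *CRY2* (1.10), *UVR8* (0.54), *PHYE* (0.49) and *LKP2* (0.41), and *CRY3* (-0.90) was lower, beside 37.4% of all genes called, while edgeR called 2 of 4 tested. *FKF1*, a blue light receptor under clock control, was at 0.102, 0.0575 and 23.5 TPM under artificial low R:FR, where replicate 3 stood apart. Of the calls against weed-free in these 4 lists, that of *PHYB* under artificial low R:FR was the only one that held in 9 of 9 fits with a library left out, and that of *NPY1* held in 6 of 9 for biological and 2 of 9 for artificial low R:FR.

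**Figure D5:**
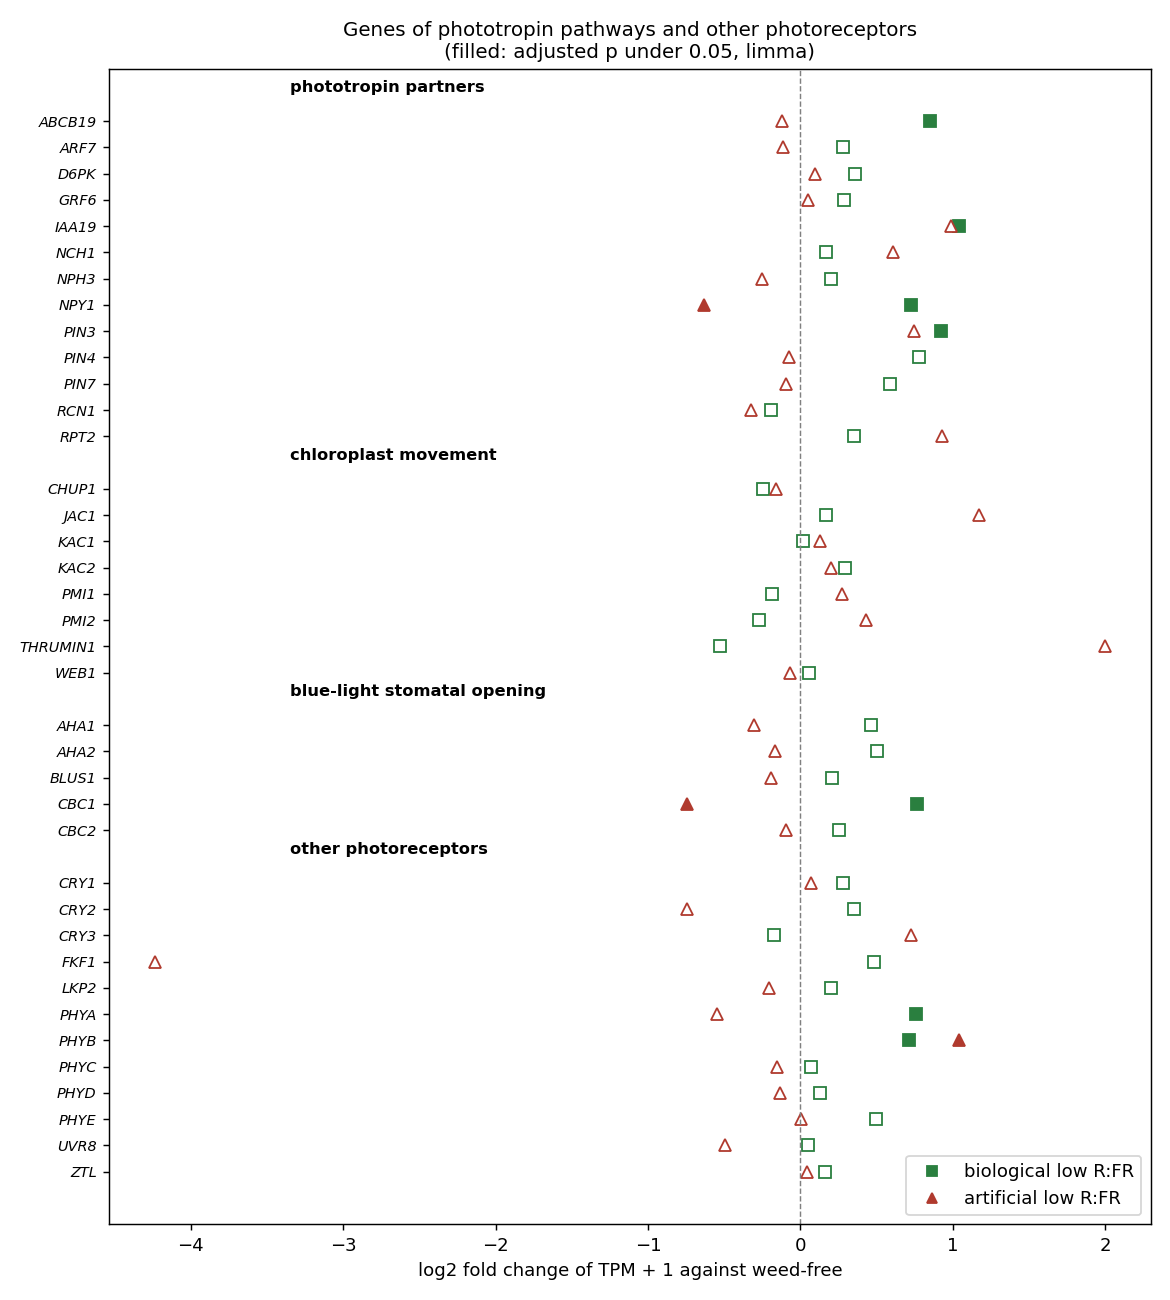
Log2 fold change of TPM + 1 against weed-free (horizontal axis) under biological (squares) and artificial (triangles) low R:FR for genes that work with phototropins, genes of chloroplast movement and of stomatal opening, and other photoreceptors; filled symbols have a limma adjusted p under 0.05. *NPY1* (0.72 and -0.63) and *CBC1* (0.76 and -0.74) are filled on opposite sides of 0, and *PHYB* (0.71 and 1.04) is filled on the same side.

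Without replicate 3 of any treatment, a choice made after seeing the data, 4 of the 6 genes were called under biological low R:FR (*PKS1*, *PKS2*, *PKS4* and *PHOT1*), 2 under artificial low R:FR (*PKS2* and *PKS4*) and 4 between the treatments (*PKS1*, *PKS3*, *PKS4* and *PHOT1*). In the same fits 5050, 3083 and 8044 of all genes tested were called. Of the 13 genes that work with phototropins, 9 then rose beside grass, and under far-red LEDs 4 rose and 1 fell.

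The genes whose pattern was most like that of each member were taken by Pearson's r of log2(TPM + 1) over the 9 libraries, which share treatments, as a description. Closest to *PKS1* was *UGE3* (r = 0.98), a UDP-glucose epimerase gene, followed by *TRM27* and *FUR1*. Closest to *PKS2* were *ST2B* (r = 0.97), a sulfotransferase gene, *SAUR23* (r = 0.96), a small auxin up RNA, and *ATHB2* (r = 0.95). Closest to *PKS3* were *DES1*, *CRK21* and *CAO* (r = 0.94 to 0.97), and to *PKS4* *HTA12* (r = 0.99), a histone H2A gene, *NF-YA4* and *UMAMIT20*. Here *CAO* is AT2G47450, also named *CPSRP43*, a chloroplast signal recognition particle gene. Closest to *PHOT1* were *MIOX1*, *BLH4* and *TTL4* (r = 0.96 to 0.97), and to *PHOT2* *DPMS3*, *WAVE2* and *SRD2* (r = 0.91 to 0.93). No member was among the 3 closest genes of another.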

How the data were processed

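Leaf RNA of 9 libraries was sequenced. According to the deposited tables, the authors gave TPM, FPKM and coverage per library for 37363 genes, and normalized counts for 16601 genes in a single table. Reads were aligned to TAIR10.1 with Bowtie 2 2.4.3, counted with HTSeq 0.13.5 and scaled with DESeq2 1.30.1, per the submitters' processing notes. The program behind the TPM tables is not given in the sources used here. The authors' tables of coverage signal and of normalized count signal served as checks, and 3 tables of their own log2 fold changes and p-values were not used. Every normalized count was a whole number of reads times a constant (100% of values, tolerance 1e-06), giving 1683076 to 5025090 reads per library. These are far fewer than the mapped reads that the study lists for each library. Results on normalized counts and on recovered reads thus rest on a small part of the mapped reads, and the reason was not tested. Coverage was 4.37 to 14.05 reads per base for each FPKM.

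Genes with at least 1 TPM in at least 3 libraries were compared as log2(TPM + 1) with limma 3.58.1 (trended, robust variance, 1 fit of all 9 libraries, two-sided, Benjamini-Hochberg). The scripts were tested on simulated data. Alternatives changed the pseudocount, filter, scaling, variance, libraries and table, and edgeR 4.0.16 was run on recovered reads. The 6 genes and all gene lists were chosen with earlier results of these data known. Named were the 6 genes, members of the 4 pathway lists past the threshold, *CCA1*, *ELF4*, *ATHB2* and the 3 most similar genes of each member. Genes given library by library in the pathway lists were picked after their values were seen. Same-numbered libraries of weed-free and artificial low R:FR deviated together in all pairs (correlations 0.17 to 0.31), so blocked values are given for that comparison, while the other comparisons had pairs under 0.1 (0.00 and -0.03 the lowest). Unlike-numbered libraries of weed-free and artificial low R:FR correlated at -0.27 to 0.14, and the negative ones all included replicate 3. Pairing by number is thus weakly shown for replicates 1 and 2. The upstream sequence of *PKS4* is not reported here.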

Additional observations from a re-analysis of the deposited data

Results flagged for a closer look

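2 of the 6 genes differed between biological and artificial low R:FR by a test of the difference itself. *PKS1* was 0.85 higher (log2) beside grass than under far-red LEDs, with all 3 libraries above all 3 of the LED treatment. *PKS3* was lower by a log2 difference of -0.48, with all 3 libraries below, and this call was lost without artificial low R:FR replicate 1 (adjusted p = 0.0517) or 2 (adjusted p = 0.0508). These 2 of 6 genes stand beside 37.4% of all genes tested that were called in the same limma comparison. The design cannot tell light source from growth chamber in these comparisons. Of 15 clock genes, 7 were higher and 3 lower by limma between the same treatments, and the time of day of harvest is not given. Whether clock phase or harvest time has a part in these differences was not tested.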

How the results depend on the processing

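The 18 log2 fold changes of the 6 genes were computed under alternatives giving 369 values, of which 334 kept both direction and side of the threshold, 14 passed it only under the alternative, 6 lost it and 15 turned direction. The cause was not tested in any of these. Alternatives that changed only the filter, the variance, the block or the use of the third treatment left the group means unchanged. They could not turn a direction, so the 334 include values whose direction was fixed in advance. Leaving out single libraries gave 1 to 2, 0 to 2 and 1 to 3 of the 6 genes called (biological against weed-free, artificial against weed-free, biological against artificial low R:FR) and 191 to 2970, 122 to 2014 and 3743 to 7611 of all genes. The first count of all genes was 191, 232 and 264 without weed-free replicate 1, weed-free replicate 2 or biological replicate 1, 1083 without artificial replicate 2, and 2970 without weed-free replicate 3. The second was 199, 124, 447, 154, 122 and 2014 without weed-free replicate 1 or 2, biological replicate 2, or artificial replicate 1, 2 or 3. The third was 4204, 3743 and 4264 without biological replicate 1 or artificial replicate 1 or 2. These fits also turned *PHOT2* (-0.038 to 0.25 for biological against weed-free, -0.18 to 0.012 between the treatments) and *PKS2* between the treatments (-0.030 to 0.069).

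With no filter on low values 789 and 258 genes were called against weed-free under biological and artificial low R:FR, against 1702 and 671 with it. Median-of-ratios scaling called 1020 genes under artificial low R:FR, turned *PHOT2* under biological low R:FR (-0.0098) and *PKS2* between the treatments (-0.16), and split the calls 1149 higher and 1363 lower (biological against weed-free, 1103 and 599 as deposited) and 3526 and 3862 (between the treatments, 4240 and 2418 as deposited). Quantile normalization called 2 of the 6 genes under biological low R:FR and gave 1122 higher and 1185 lower, 478 and 359, and 3382 and 3392. On normalized counts 0, 0 and 1 of 5 genes tested were called and 327, 234 and 1784 of all genes, with *PKS2* at -0.31, *PHOT1* at -0.029 and *PHOT2* at -0.020 under artificial low R:FR and *PHOT2* at 0.28 between the treatments. With edgeR on recovered reads, added after seeing the data, the counts were 0, 0 and 1 and 305, 267 and 1906, with *PKS2* at -0.26, *PHOT1* at -0.090, *PHOT2* at -0.022 and *PHOT2* at 0.30, in the same order. Without replicate 3 of any treatment, also added, 4, 2 and 4 of the 6 genes and 5050, 3083 and 8044 of all genes were called, and *PKS2* was at -0.069 between the treatments.

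With the replicate number as a block, 3, 2 and 2 of the 6 genes were called (*PKS1*, *PKS2* and *PHOT1* in the first comparison, *PKS2* and *PKS4* in the second, *PKS1* and *PKS3* in the third) and 2285, 1468 and 7505 of all genes. By correlation, every same-numbered pair exceeded every unlike-numbered one only between weed-free and artificial low R:FR. The margin there was small, at 0.17 against 0.14 for the closest pairs. The other blocked values rest on a shared number.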
